A study of Mus musculus with 12 samples.

Results

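The genes of glycolysis and of the pentose phosphate pathway were followed in G1E-ER4 cells treated with Thiamet-G, with β-estradiol or with both. The members were 34 genes chosen by symbol, of 32699 genes in the deposited tables. No measured value entered the rule, though earlier results of these data were known when the members were chosen. They comprise the glucose transporters Slc2a1 and Slc2a3, the lactate and pyruvate transporter Slc16a1, the enzymes from hexokinase to lactate dehydrogenase, the 4 Pfkfb enzymes, Bpgm, and the 7 enzymes of the pentose phosphate pathway. G1E-ER4 is a mouse line derived from embryonic stem cells that lack Gata1. It carries a fusion of the erythroid factor GATA-1 with the estrogen receptor, and β-estradiol (E2) thereby starts erythroid maturation. Thiamet-G (TMG) inhibits O-GlcNAcase, the enzyme that takes the sugar O-GlcNAc off proteins. The study asked whether a disturbed O-GlcNAc balance alters the erythroid transcription programme.

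The 12 RNA sequencing libraries formed 4 groups of 3: untreated cells (Ctrl), cells with 10 µM TMG (TMG), cells with 1 µM E2 (E2), and cells with both (TMG_E2). The treated groups were treated for 30 h. All groups, Ctrl included, were grown with 2.5 U/ml erythropoietin, 50 ng/ml stem cell factor and 1 µg/ml puromycin, at passages 35 to 40. All cells came from 1 line, and nothing in the labels says that the replicates were separate cultures, so the p-values measure only how these libraries varied, possibly for technical reasons. Libraries held between 17589380 and 23178721 expected counts. The labels give the cell type as embryonic stem cell at the blastocyst stage. Of the 5 stem cell markers looked up, Pou5f1, Sox2 and Zfp42 were at 0 in every library and the 5 together summed to at most 0.281 CPM (counts scaled to a common library size). The 8 erythroid markers summed to between 1331 and 1346 CPM in Ctrl and between 25631 and 27829 CPM in E2. In TMG the sum lay between 1376.5 and 1441.5 CPM and in TMG_E2 between 27434.5 and 28611.1 CPM. Most of the Ctrl sum was Tfrc (964 to 985 CPM) and most of the E2 sum Hbb-bs (18526 to 20736 CPM). The 4 mast cell markers summed to between 76.8 and 100.3 CPM in Ctrl, between 77.4 and 93.9 CPM in TMG, between 0.280 and 0.910 CPM in E2 and between 0.321 and 0.599 CPM in TMG_E2, with Mcpt8 at 0 throughout. The 4 megakaryocyte markers summed to between 80.0 and 90.7 CPM in Ctrl and between 37.2 and 39.7 CPM in E2. Most of that sum was Nbeal2 (73.2 to 81.2 CPM in Ctrl and 22.7 to 28.6 CPM in E2), while Gp9 went from between 0.519 and 1.25 CPM to between 5.34 and 7.81 CPM, Itga2b overlapped and Pf4 stayed at or below 2.13 CPM. Of the 4 granulocyte markers Mpo, Elane and S100a8 were at or near 0 in all groups, and Coro1a, which other blood cells express too, lay between 16.3 and 21.3 CPM in Ctrl, 20.0 and 23.3 CPM in TMG, 1.57 and 1.97 CPM in E2 and 2.42 and 3.29 CPM in TMG_E2. The lymphoid marker Cd3e was at 0 throughout, and Lck lay between 0.711 and 0.849 CPM in Ctrl and between 0.0935 and 0.225 CPM in E2. These marker levels moved with E2 together with the changes below, and their part in those changes was not tested.

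Glycolysis splits glucose into pyruvate, which lactate dehydrogenase turns into lactate. The pentose phosphate pathway branches off after hexokinase. Its oxidative arm makes NADPH, and its non-oxidative arm moves carbon between sugar phosphates and links back to glycolysis. Mature red cells have no mitochondria and live on these routes: glycolysis supplies their ATP, NADPH protects them from oxidation, and a side branch run by Bpgm makes 2,3-bisphosphoglycerate, which lowers the oxygen affinity of haemoglobin. Inherited loss of PKLR is a known cause of haemolytic anaemia.

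Promoter sequences are shown for 4 members that the results below turn on: Pklr and Pkm, genes of the same enzymatic step that changed with E2 in opposite directions, Hk1, the larger part of the hexokinase step, and Pfkfb4, which had the highest fold change of the members. RefSeq (GRCm38.p6) gave promoter windows of 300 bases, 250 before and 50 after a transcription start, for 33 of the 34 members. The windows are printed 5′ to 3′ on the strand of the gene, with capitals marking the GATA motifs AGATAA and TGATAA and the CACCC box CCACACCC on either strand.
Pklr, chr3:89135892-89136191, plus strand: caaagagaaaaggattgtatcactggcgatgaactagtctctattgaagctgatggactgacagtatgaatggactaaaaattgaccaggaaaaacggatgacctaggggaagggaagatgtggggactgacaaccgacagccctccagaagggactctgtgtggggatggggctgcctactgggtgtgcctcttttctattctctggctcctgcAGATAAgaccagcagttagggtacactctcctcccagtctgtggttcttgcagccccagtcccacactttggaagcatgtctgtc
Pkm, chr9:59656326-59656625, plus strand: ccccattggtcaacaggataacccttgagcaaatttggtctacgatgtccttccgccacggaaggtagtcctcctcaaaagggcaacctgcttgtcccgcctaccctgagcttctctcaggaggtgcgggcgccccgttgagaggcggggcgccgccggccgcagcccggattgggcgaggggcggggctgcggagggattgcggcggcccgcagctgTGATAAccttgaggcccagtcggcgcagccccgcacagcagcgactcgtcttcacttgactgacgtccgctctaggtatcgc
Hk1, chr10:62340372-62340671, minus strand: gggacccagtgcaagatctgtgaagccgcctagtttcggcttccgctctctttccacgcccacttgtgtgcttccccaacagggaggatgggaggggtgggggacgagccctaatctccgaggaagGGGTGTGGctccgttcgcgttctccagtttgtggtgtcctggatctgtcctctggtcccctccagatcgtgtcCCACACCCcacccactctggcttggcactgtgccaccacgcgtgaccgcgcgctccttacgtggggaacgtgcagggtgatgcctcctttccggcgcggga
Pfkfb4, chr9:108991652-108991951, plus strand: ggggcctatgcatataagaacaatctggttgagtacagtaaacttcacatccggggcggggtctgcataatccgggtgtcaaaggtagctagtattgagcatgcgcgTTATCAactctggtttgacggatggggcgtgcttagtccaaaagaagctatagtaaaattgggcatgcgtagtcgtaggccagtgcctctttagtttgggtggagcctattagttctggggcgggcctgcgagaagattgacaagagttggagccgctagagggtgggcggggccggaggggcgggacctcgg
In the Pklr window AGATAA began 35 bases before the start. This is the upstream of its 2 windows, at the start known to be used in erythroid cells. The downstream window, chr3:89136373-89136672, held none of the 3 motifs. In the Pkm window TGATAA began 32 bases before the start, and the second Pkm window, chr9:59656977-59657276, held none of the 3 motifs. The Hk1 window belongs to the start inside the gene and held CCACACCC once on each strand, at 124 and 51 bases before that start, while the window at the outer start held none. The Pfkfb4 window held TGATAA on the minus strand, its leftmost base 143 bases before the start. So a GATA motif lay close to 1 of the starts both of Pklr, which rose with E2, and of Pkm, which fell.

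Over all 52 member windows, some overlapping, AGATAA was found in 7 (13.5%), TGATAA in 5 (9.62%) and either of them in 11 (21.2%). Of all 32851 RefSeq windows of that length, 11.2%, 9.05% and 18.6% held them. CCACACCC was in 3 member windows (5.77%) against 3.56% of all windows. The GC box CCGCCC was in 29 member windows (55.8%) against 35.7% of all windows. The E-box CACGTG was in 5 member windows (9.62%) against 7.15% of all, and TACGTG, the core of the hypoxia response element, in 5 (9.62%) against 3.23%. All motifs were searched on both strands, and a match is a string of letters, not a bound site.

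E2 moved most of the pathway, with some steps higher and others lower. Of the 29 members with enough counts to be tested, 12 were higher in E2 than in Ctrl and 12 lower (edgeR, adjusted p under 0.05), a share of 82.8% where 82.7% of all 8273 genes tested were called (41.5% higher and 41.2% lower). The share of members called was thus that of the genes at large, and the median log2 fold change of the members, -0.10, lay beside -0.0008 for all genes. By role, the 4 non-oxidative pentose phosphate genes were all higher. So were the 3 Pfkfb genes tested, but Pfkfb1 and Pfkfb4 exceeded 10 CPM in no library without E2, so that for them a high level with E2 was a condition of being tested. Pgls and Pgd of the oxidative arm were lower, as were 5 of the 6 lower glycolysis genes tested from Gapdh to pyruvate kinase, the exception being Pklr. Upper glycolysis was mixed, with 3 higher and 1 lower of 8 tested. Among called members, 5 were at least doubled (Pfkfb4, Pfkfb1, Pklr, Hk1 and Bpgm) and 3 at most halved (Slc16a1, Pgam1 and Slc2a3). Slc2a3 passed the expression filter only through 2 libraries, both Ctrl, so for it a high level without E2 was a condition of being tested.

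With TMG present the E2 effect was measured in 6 other libraries, TMG_E2 against TMG. Again 12 members were higher and 12 lower, 82.8% of those tested beside 82.7% of all genes tested (40.9% higher and 41.8% lower). All 12 genes higher in the one setting were higher in the other, and 11 were lower in both. Tpi1, called with TMG alone, lay near the threshold in both settings (-0.11, adjusted p = 0.0544, without TMG and -0.12, adjusted p = 0.0353, with it), and DESeq2 called it without TMG (adjusted p = 0.0355). Slc2a1, Hk2, Pfkl and Pfkp were called in neither. On the deposited TPM scale, where the median of all genes tested fell by 0.19 with E2, the split was 10 higher and 16 lower without TMG.

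**Figure D1:**
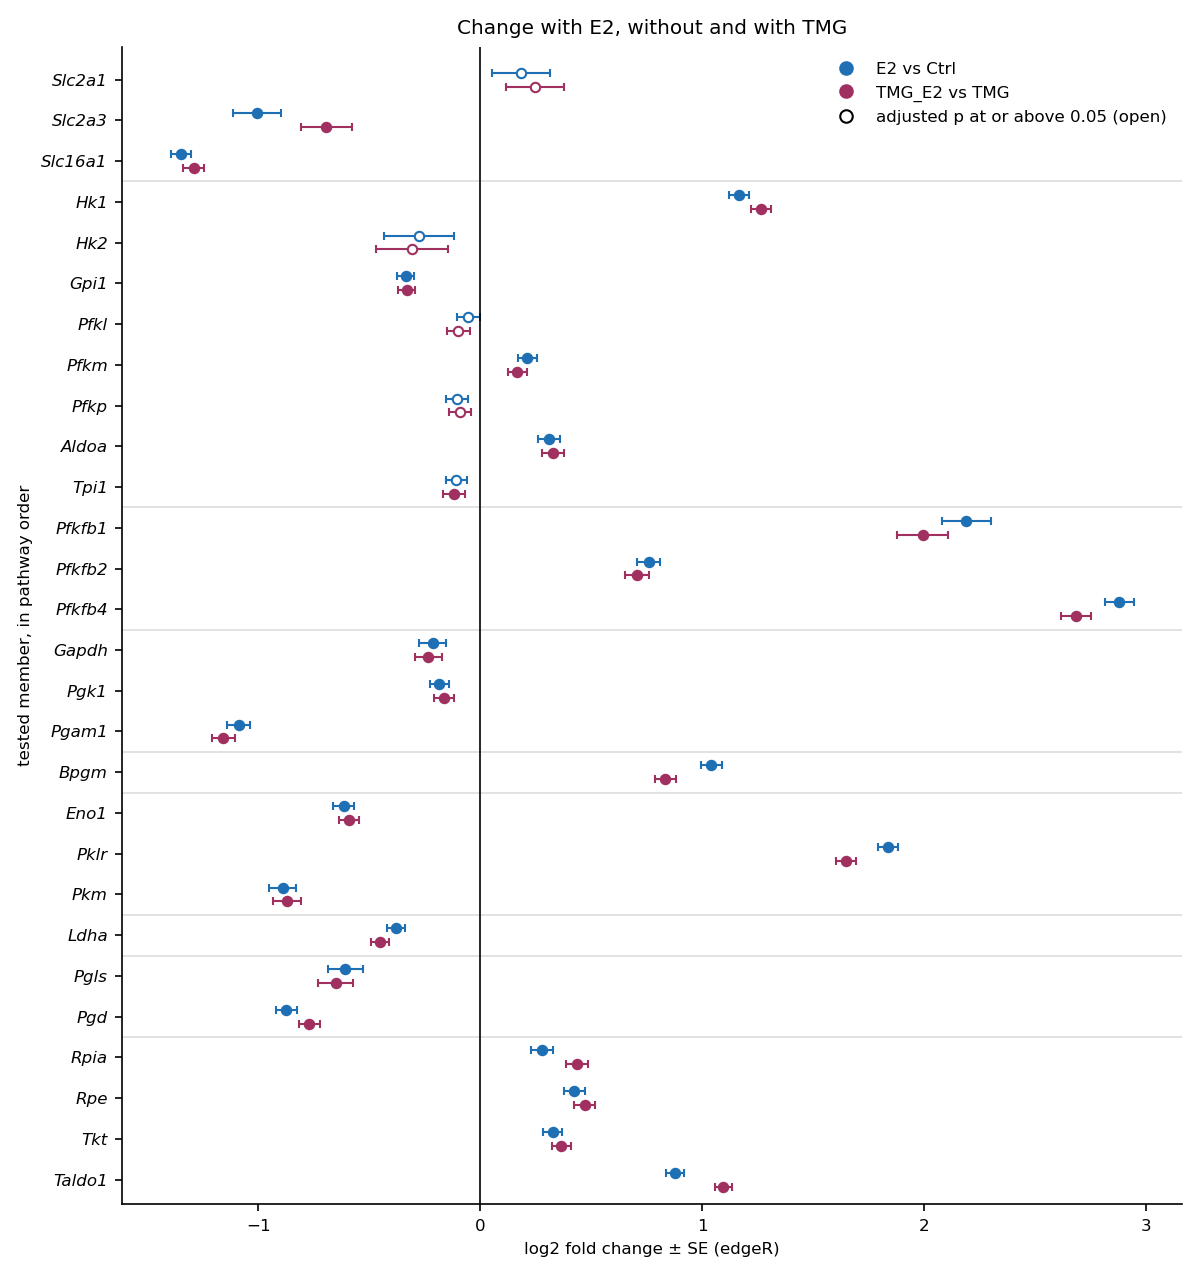
Change of the tested members described here with E2, without TMG (blue) and with TMG (red), as log2 fold change ± SE from edgeR on the horizontal axis, members in pathway order on the vertical axis, filled points for adjusted p under 0.05. Changes reach from -1.35 for Slc16a1 to 2.88 for Pfkfb4, and the points of a member lie at most 0.31 apart between the 2 settings.

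In transport, Slc16a1, which carries lactate and pyruvate across the membrane, fell. It stood at 199, 192 and 205 CPM in the Ctrl libraries and at 75.4, 76.1 and 82.3 CPM in E2. With TMG it went from 179.8, 188 and 187 CPM to 70.8, 79.8 and 76.3 CPM. No library with E2 reached any library without it, and the level was 2.54-fold lower without TMG (log2 fold change -1.35 ± 0.05, SE, adjusted p = 2.55e-14, edgeR) and 2.45-fold lower with TMG.

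The main glucose transporter of red cell precursors, Slc2a1, measured 117, 134 and 117 CPM in Ctrl, 102, 121 and 124 CPM in TMG, 109.7, 159.5 and 148 CPM in E2 and 107, 158 and 147 CPM in TMG_E2. In the 3 treated groups replicate 1 was the lowest library, and E2 and Ctrl overlapped (0.18 ± 0.13, adjusted p = 0.196). With the replicate number as a block, Slc2a1 was called higher with E2 (0.17, adjusted p = 0.0240, without TMG, and 0.24, adjusted p = 0.00314, with it), and leaving out E2 replicate 1 gave 0.33 (adjusted p = 0.0188), or TMG_E2 replicate 1 gave 0.40 with TMG (adjusted p = 0.00323). With no expression filter Slc2a1 was also called higher, without TMG (adjusted p = 0.0287) and with it (adjusted p = 0.00307). The high-affinity transporter Slc2a3 was sparse, at 9.75, 9.86 and 8.94 CPM in Ctrl, 6.12, 6.84 and 7.73 CPM in TMG, 4.78, 4.39 and 5.05 CPM in E2 and 4.70, 4.06 and 3.89 CPM in TMG_E2. Only 2 libraries, both Ctrl, lifted it over the expression filter. Its level was 2.01-fold lower with E2 (SE of the log2 fold change 0.11, adjusted p = 1.16e-07), so that Slc2a1 made up 97.0% ± 0.18 of the transporter pair's TPM in Ctrl and 98.6% ± 0.29 in E2 (SD, n = 3).

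Hexokinase, which traps glucose in the cell by phosphorylating it, shifted further toward Hk1. Hk1, the form known from red cells, measured 292, 286 and 301 CPM in Ctrl and 641, 672 and 660 CPM in E2, and 282, 278 and 307 CPM in TMG and 656, 714 and 715 CPM in TMG_E2. It was 2.24-fold higher with E2 (1.17 ± 0.04, adjusted p = 9.00e-14, edgeR), with no overlap. Hk2, an insulin- and hypoxia-responsive form, measured 121, 152 and 135 CPM in Ctrl, 114, 134 and 133 CPM in TMG, 81.9, 127 and 127 CPM in E2 and 74.1, 124 and 111 CPM in TMG_E2. Replicate 1 was the lowest Hk2 library of every group. The fall with E2 did not pass the test (-0.28 ± 0.16, adjusted p = 0.118) but did with the replicate block (-0.29, adjusted p = 0.00154, and -0.33, adjusted p = 7.46e-04, with TMG), and with TMG also without TMG_E2 replicate 2 (-0.47, adjusted p = 0.0203). Library size alone, no filter and limma on TPM called Hk2 lower in both settings (adjusted p from 0.00138 to 0.0371). Without TMG it was also called when only the groups compared were fitted (adjusted p = 0.0459). Hk3 had 2 counts in all 12 libraries together. Per length, the hexokinase sum was 155 ± 3 TPM in Ctrl and 256 ± 10 TPM in E2, and Hk1 made up 74.4% ± 2.4 and 88.8% ± 2.2 of it.

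**Figure D2:**
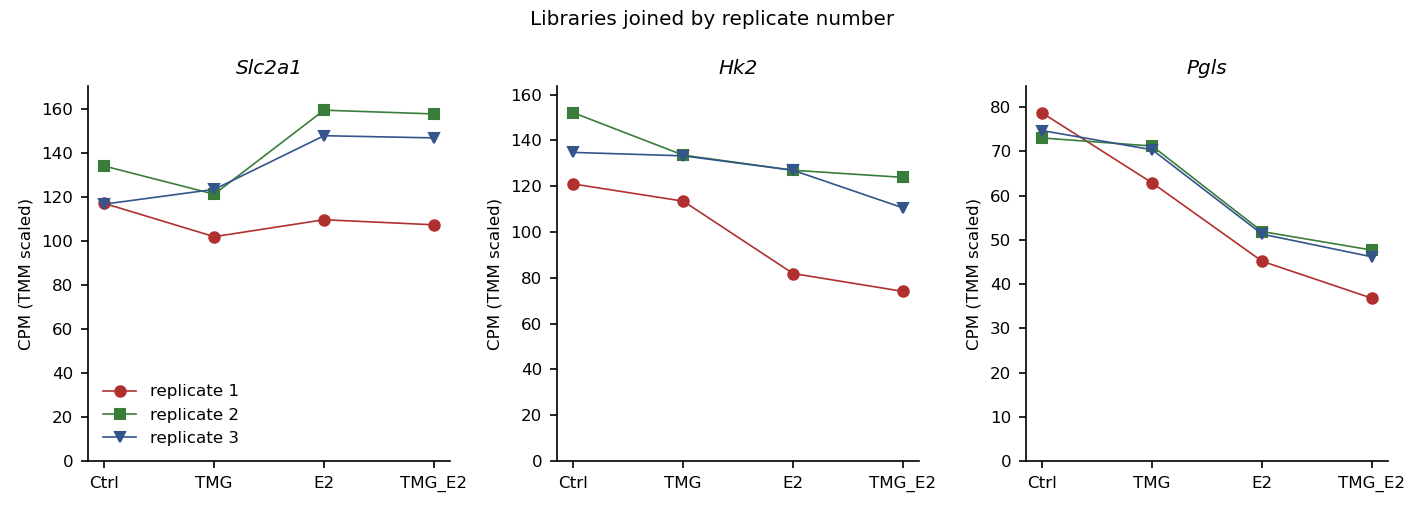
CPM (TMM scaled) of Slc2a1, Hk2 and Pgls in the 4 groups, with libraries of the same replicate number joined by lines, which show pairing and not a course in time. Replicate 1 is the lowest Hk2 library of all 4 groups, from 121 CPM in Ctrl to 74.1 CPM in TMG_E2.

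The next steps of upper glycolysis moved less. Gpi1, which isomerises glucose 6-phosphate, fell from 1182 ± 24 to 937 ± 22 CPM (-0.34 ± 0.04, adjusted p = 2.21e-07). Of the 3 phosphofructokinase genes, whose enzyme commits sugar to glycolysis, Pfkl measured 341 to 361 CPM in Ctrl and 315 to 351 CPM in E2 (-0.05 ± 0.05, adjusted p = 0.353), and Pfkp 377 to 415 and 356 to 389 CPM (-0.10 ± 0.05, adjusted p = 0.0604, or 0.00727 with the replicate block). With TMG they gave -0.10 (adjusted p = 0.0960, or 0.0299 with the block) and -0.09 (adjusted p = 0.0921, or 0.0141 with the block). Leaving out Ctrl replicate 3, E2 replicate 2, TMG replicate 3 or TMG_E2 replicate 2 called Pfkp, and TMG_E2 replicate 3 Pfkl, all lower (adjusted p from 0.0230 to 0.0455). Pfkm, the muscle form, rose from 45.6, 47.4 and 47.3 to 54.5, 54.1 and 54.0 CPM (0.21 ± 0.04, adjusted p = 2.45e-04). On the TPM scale Pfkm was called in neither setting (0.02, adjusted p = 0.685, and -0.01 with TMG), while Pfkl and Pfkp were called lower without TMG (-0.25, adjusted p = 1.03e-04, and -0.29, adjusted p = 8.53e-04, limma) and with it (-0.28 for both). Library size alone also called both lower in either setting (-0.15 to -0.20). Without TMG, Pfkp was called lower too by DESeq2, with no filter and with only the groups compared (adjusted p from 0.0277 to 0.0496). Per length, the phosphofructokinase sum went from 380.1 ± 8.5 TPM in Ctrl to 320 ± 14 TPM in E2, without overlap. On this scale the median log2 change of all genes tested was itself -0.19 with E2. Aldoa, the aldolase of muscle and red cells, rose from 2431 ± 32 to 3011 ± 31 CPM (0.31 ± 0.05, adjusted p = 1.75e-05), while Aldoc was not tested, at 4.0 to 7.59 CPM in all libraries. Triose phosphate isomerase, Tpi1, measured 1389 to 1440 CPM in Ctrl and 1249 to 1350 CPM in E2 (-0.11 ± 0.05, adjusted p = 0.0544, or 0.0168 with the replicate block). RLE factors, library size alone, no filter, only the groups compared, DESeq2 and TPM also called it lower (adjusted p from 6.48e-07 to 0.0499). Its call with TMG (-0.12, adjusted p = 0.0353) was lost when TMG replicate 2 or 3 or TMG_E2 replicate 1 or 2 was left out (adjusted p from 0.0535 to 0.182), and with RLE factors, filterByExpr or only the groups compared (0.0502 to 0.126).

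The widest rises were in the Pfkfb genes. Their enzymes make and break fructose 2,6-bisphosphate, the strongest activator of phosphofructokinase. Pfkfb4 stood at 6.48, 6.23 and 6.31 CPM in Ctrl and at 46.5, 46.5 and 47.1 CPM in E2, a 7.36-fold rise (2.88 ± 0.07, adjusted p = 8.25e-17, edgeR). In TMG it stood at 6.92, 6.48 and 6.16 CPM and in TMG_E2 at 44.6, 40.1 and 41.3 CPM. Every library with E2 lay above every library without it. Pfkfb1 went from 2.65, 3.49 and 2.49 CPM to 14, 12.7 and 12.7 CPM, and with TMG from 2.94, 2.81 and 3.08 to 11.6, 12.4 and 11.3 CPM (4.56-fold without TMG, 2.19 ± 0.11, adjusted p = 4.29e-12). Both genes passed the filter only through the libraries with E2, so they could be tested only because they were high there. Pfkfb2 was above 10 CPM in all libraries and rose from 69.8, 70.6 and 65.8 CPM to 122, 113 and 114 CPM (1.69-fold, 0.76 ± 0.05, adjusted p = 3.54e-10). Pfkfb3, known for its kinase activity in proliferating cells, had no count in any library. The Pfkfb sum thus went from 23.4 ± 0.8 to 57.9 ± 1.9 TPM (SD, n = 3), and the share of Pfkfb4 in it from 13.3% ± 0.6 to 34.6% ± 1.0, while Pfkfb2 went from 74.4% ± 1.4 to 45.5% ± 0.4.

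Pfkfb1 has neighbours to be kept in view. On chromosome X it begins 16822 bases beyond the end of Alas2, the erythroid gene of haem synthesis, which went from between 1.70 and 2.53 CPM in Ctrl to between 638 and 672 CPM in E2. It also shares 762 bases with Apex2, which went from between 12.1 and 12.5 CPM to between 26.2 and 27.4 CPM. Whether reads of these genes reached Pfkfb1 was not tested, and no source used here gives the strand setting of the counting. Hk1os, which overlaps Hk1 on the other strand, stayed between 0.311 and 1.62 CPM.

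**Figure D3:**
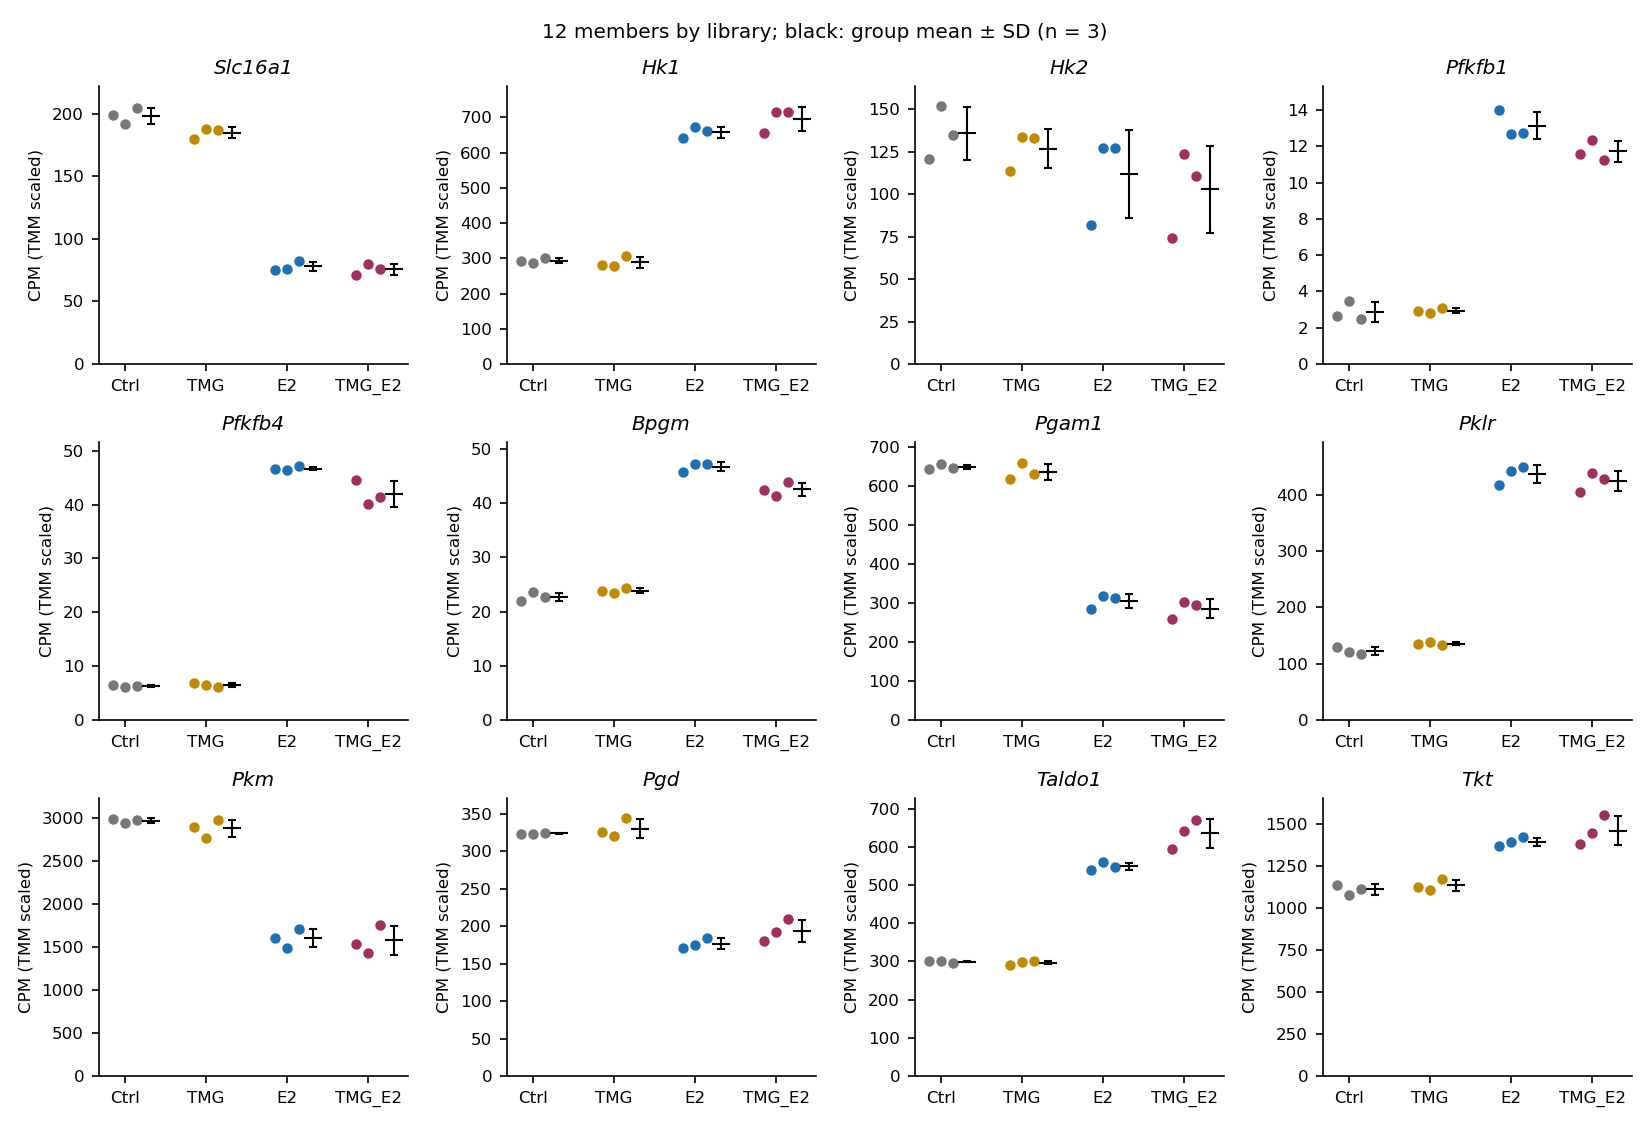
CPM (TMM scaled) of 12 members in each library of the 4 groups, with the group mean ± SD (n = 3) in black and axes that start at 0. Pfkfb4, Pklr, Hk1, Bpgm and Taldo1 lie higher and Slc16a1, Pgam1, Pkm and Pgd lower in all 6 libraries with E2 than in the 6 without, while Hk2 overlaps.

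Lower glycolysis, the part that yields ATP, was lower at every step of its main line. Gapdh, the most abundant member at 7960 ± 130 TPM in Ctrl, fell from 6119 ± 52 to 5274 ± 180 CPM (-0.21 ± 0.06, adjusted p = 0.00331). Pgk1 fell by 0.18 on the log2 scale (adjusted p = 8.25e-04). Eno1, the second most abundant member in Ctrl, fell from 3149 ± 23 to 2055 ± 72 CPM (-0.62 ± 0.05, adjusted p = 1.37e-09). The counting could split reads between Eno1 and its near-identical copy Eno1b, which stood at 21.8 to 49.9 CPM. Eno2, the neuronal form, had 3 counts in all. The largest fall of this stretch was in phosphoglycerate mutase, Pgam1, at 644, 656 and 648 CPM in Ctrl and 286, 318 and 313 CPM in E2 (2.13-fold lower, -1.09 ± 0.05, adjusted p = 2.49e-12). In TMG it stood at 619.9, 659.6 and 630.3 CPM and in TMG_E2 at 258, 303 and 296 CPM, so that no library with E2 came near one without it.

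Bpgm, which draws on the same substrate to make 2,3-bisphosphoglycerate, moved the other way. It measured 22, 23.5 and 22.6 CPM in Ctrl, 23.9, 23.4 and 24.3 CPM in TMG, 45.9, 47.2 and 47.3 CPM in E2 and 42.5, 41.3 and 43.8 CPM in TMG_E2. The rise was 2.06-fold without TMG (1.04 ± 0.05, adjusted p = 1.24e-12, edgeR) and 1.78-fold with it. Per length Bpgm remained far the smaller of the pair, at 34 ± 0.4 TPM in E2 beside 253 ± 12 TPM for Pgam1. The TPM ratio of Pgam1 to Bpgm was 32.4 in Ctrl and 7.42 in E2.

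Pyruvate kinase, the last step to pyruvate, showed opposite changes in its 2 genes. Pklr, the liver and red cell gene, measured 129.5, 120.5 and 116 CPM in Ctrl and 418, 442 and 449 CPM in E2. In TMG it measured 135, 138 and 133 CPM and in TMG_E2 404, 439 and 428 CPM. It rose 3.58-fold (1.84 ± 0.05, adjusted p = 2.43e-16, edgeR), with every library with E2 above every library without it. Pkm, the gene of most other tissues, measured 2999, 2944 and 2985 CPM in Ctrl and 1613, 1495 and 1711 CPM in E2, and 2902, 2778 and 2977 CPM in TMG and 1539, 1436 and 1765 CPM in TMG_E2. It was 1.85-fold lower with E2 (-0.89 ± 0.06, adjusted p = 4.08e-10), again without overlap. The Pkm1 and Pkm2 splice forms were not analysed here. Per length, the pyruvate kinase sum fell from 2177 ± 46 TPM in Ctrl to 1254 ± 84 TPM in E2, and the share of Pklr went from 3.38% ± 0.18 to 18.5% ± 1.3 (SD, n = 3). Pkm was thus still the larger part, at 1023 ± 82 TPM beside 231 ± 7 TPM for Pklr.

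Lactate dehydrogenase came from a single gene. Ldha fell from 2963 ± 38 to 2279 ± 56 CPM (-0.38 ± 0.04, adjusted p = 1.47e-07) and from 2942 ± 9.51 to 2154 ± 123 CPM with TMG (-0.45 ± 0.04, adjusted p = 1.46e-08). Ldhb, the heart form, had no count in any of the 12 libraries, which allows at most 0.129 to 0.171 CPM by library at 3 counts, for counting error only. A ratio of the 2 genes therefore carries nothing beyond the level of Ldha.

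In the oxidative arm of the pentose phosphate pathway, the lactonase Pgls fell from 78.7, 73.0 and 74.7 to 45.2, 51.9 and 51.3 CPM (-0.61 ± 0.08, adjusted p = 1.29e-06). Pgd, which makes NADPH, fell from 324, 323 and 325 CPM to 171, 174.5 and 185 CPM (1.83-fold lower, -0.87 ± 0.05, adjusted p = 1.60e-11), and from 326, 320.1 and 345 to 180.1, 192 and 209.8 CPM with TMG. The E2 libraries of Pgls and Pgd lay below all Ctrl libraries.

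In the non-oxidative arm, Taldo1, the transaldolase, stood at 299.9, 299.8 and 297 CPM in Ctrl and at 539.8, 559 and 548 CPM in E2 (1.84-fold, 0.88 ± 0.04, adjusted p = 1.10e-12, edgeR). In TMG it stood at 291, 299.5 and 300.3 CPM and in TMG_E2 at 594, 640.3 and 671 CPM. The 4 groups fell into 3 levels without overlap, Ctrl and TMG together, then E2, then TMG_E2. Tkt, the transketolase, rose from 1110 ± 30 to 1392 ± 26 CPM (0.33 ± 0.04, adjusted p = 1.62e-06). Rpe and Rpia, which interconvert the pentose phosphates, rose by 0.42 ± 0.05 (adjusted p = 1.56e-07) and 0.28 ± 0.05 (adjusted p = 5.12e-05), the latter not called on the TPM scale (0.09, adjusted p = 0.127). Per length Tkt led the arm in Ctrl at 570 ± 20 TPM beside 427 ± 3 TPM for Taldo1, and in E2 Taldo1 led at 685 ± 7 TPM beside 625 ± 10 TPM for Tkt. The arm's sum went from 1145 ± 26 to 1473 ± 9 TPM in E2 and stood at 1579 ± 29 TPM in TMG_E2. All 34 members together made up 2.66% ± 0.03 of all TPM in Ctrl, 2.59% ± 0.06 in TMG, 2.03% ± 0.04 in E2 and 1.99% ± 0.07 in TMG_E2. This share is weighted toward the most abundant members, and on the TPM scale the median log2 change of all genes tested was -0.19 with E2. By count, the main fit called 12 members higher and 12 lower in E2 than in Ctrl. These are bulk samples, in which fewer cells of a type and less RNA per cell cannot be told apart.

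The order of the members by level also changed. Per length, Gapdh, Eno1, Ldha, Aldoa and Pkm were the top 5 in Ctrl, at 7960, 3421, 3213, 2845 and 2103 TPM, each beyond the spread of its neighbours. In E2 Aldoa was second at 3082 ± 33 TPM, followed by Ldha at 2160 ± 42 and Eno1 at 1953 ± 68 TPM, with Pkm at 1023 ± 82 TPM behind Pgk1 and Tpi1, which at 1322 ± 29 and 1264 ± 46 TPM were close to each other.

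The balance between paired genes was tested on the log2 ratio of TPM, with 0.1 TPM added to each, over all 12 libraries. Labels were permuted exactly within the libraries with and without the other treatment, which gives 400 arrangements and a smallest p of 0.005, and values were adjusted over 16 tests. With E2 the Pklr to Pkm ratio rose 6.07-fold (2.69 without TMG and 2.51 with TMG on the log2 scale). Bpgm to Pgam1 rose 4.17-fold, Hk1 to Hk2 2.89-fold and Slc2a1 to Slc2a3 2.01-fold. For each of these 4 pairs the exact permutation p was the smallest possible, 0.005 (adjusted p = 0.0114), and with the permutation also held within replicate numbers the adjusted p was 0.0556, from a smallest possible p of 0.0313. Aldoa to Aldoc gave 0.36 on the log2 scale (exact permutation test, adjusted p = 0.1), or 0.46 and a call without Ctrl replicate 3 (adjusted p = 0.04), and within replicate numbers it had the same adjusted p of 0.0556 as the 4 pairs. Pfkl to Pfkp gave 0.02 (adjusted p = 0.740). The Eno1 to Eno2 and Ldha to Ldhb ratios have a second gene at or near 0 and are not read as a balance.

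**Figure D4:**
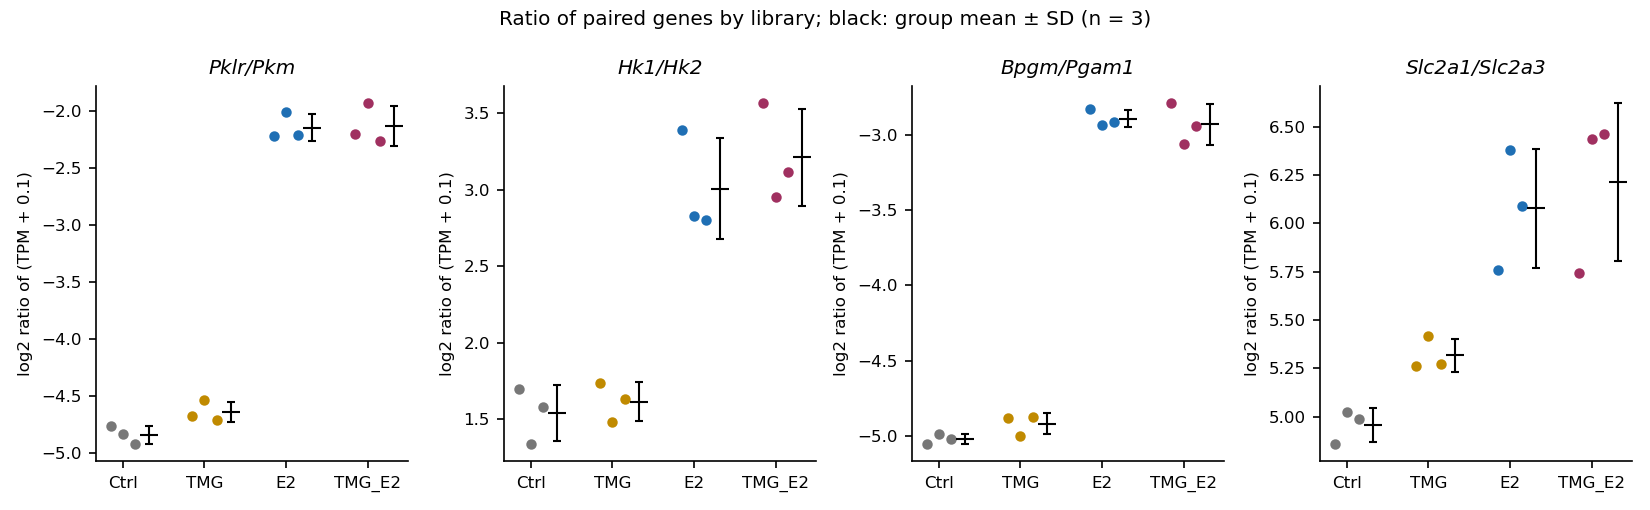
Log2 ratio of (TPM + 0.1) for Pklr/Pkm, Hk1/Hk2, Bpgm/Pgam1 and Slc2a1/Slc2a3 in each library, with the group mean ± SD (n = 3) in black and a separate vertical range for each pair. The mean Pklr/Pkm ratio goes from -4.84 in Ctrl to -2.14 in E2 and stands at -4.64 in TMG and -2.13 in TMG_E2.

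TMG alone left the members close to Ctrl. Of the 29 tested, none was called higher and 1 was called lower, 3.45% where 5.15% of all genes tested were called (3.01% higher and 2.14% lower), and 3 members had an unadjusted p under 0.05 (DESeq2 and limma on TPM each called 1). The gene called was Slc2a3, with all TMG libraries (6.12 to 7.73 CPM) below all Ctrl libraries (8.94 to 9.86 CPM), a 1.38-fold difference (-0.47 ± 0.10, adjusted p = 0.0118, edgeR). The call was lost without Ctrl replicate 2 (-0.44, adjusted p = 0.0543) or TMG replicate 1 (-0.39, adjusted p = 0.0716), and the gene passed the filter only through 2 Ctrl libraries. Pklr also separated, at 116 to 129.5 CPM in Ctrl and 133 to 138 CPM in TMG, without passing the test (0.15 ± 0.05, adjusted p = 0.0782). It passed when only the groups compared were fitted (adjusted p = 0.0373) and without Ctrl replicate 1 (0.19, adjusted p = 0.0472). Slc16a1 and Pgls were lower and Pfkfb2 higher in every TMG library than in any Ctrl library, by -0.10, -0.15 and 0.07, with adjusted p from 0.213 to 0.563. How often genes at large separated in this way, 3 libraries against 3, was not counted, so these separations are not read as an effect of TMG. No isozyme ratio of 2 expressed genes was called for TMG (exact permutation test, adjusted p from 0.231 to 0.740). Hk1 to Hk2, at 0.14 (adjusted p = 0.467), was higher with TMG in all 6 pairs of same-numbered libraries, and with the exact permutation held within these numbers its adjusted p was 0.0556, the value the E2 ratios had in that test. The numbers of TMG and Ctrl were not taken as paired. The Slc2a1 to Slc2a3 ratio, at 0.25, was called without TMG_E2 replicate 1 (0.37, adjusted p = 0.0200).

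In cells given E2, the main fit, which leaves out the replicate numbers, called 1 member with added TMG, Taldo1. This was 3.45% of those tested, where 12.8% of all genes tested were called (5.61% higher and 7.14% lower). Taldo1 was 1.16-fold higher in TMG_E2 than in E2, with all 3 libraries above the 3 of E2 (0.21 ± 0.04, adjusted p = 0.00272, edgeR). It was called under every alternative processing and without any 1 library, with values from 0.17 to 0.25. None was called lower, with 6 members at an unadjusted p under 0.05. Among these, Pgls had -0.19 ± 0.08 (adjusted p = 0.136), with overlapping groups, and was called lower with no expression filter (adjusted p = 0.0451). DESeq2 called 1 member and limma on TPM 3. Bpgm was lower in each TMG_E2 library (41.3 to 43.8 CPM) than in any E2 library (45.9 to 47.3 CPM), at -0.14 ± 0.05 (adjusted p = 0.0556), as was Pfkfb4 (40.1 to 44.6 against 46.5 to 47.1 CPM, -0.15 ± 0.05, adjusted p = 0.0629). With the replicate block, both were called lower (adjusted p = 0.0472 for Bpgm and 0.0379 for Pfkfb4), and Pgd (0.13, adjusted p = 0.0240) and Rpia (0.12, adjusted p = 0.0297) were called higher. Without the block Pgd and Rpia had adjusted p of 0.0878 and 0.109. Leaving out TMG_E2 replicate 1 called Pfkfb4 (-0.20, adjusted p = 0.0193) and Pgd (0.18, adjusted p = 0.0169), and leaving out TMG_E2 replicate 3 called Bpgm (-0.16, adjusted p = 0.0400) and Ldha (-0.13, adjusted p = 0.0111).

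**Figure D5:**
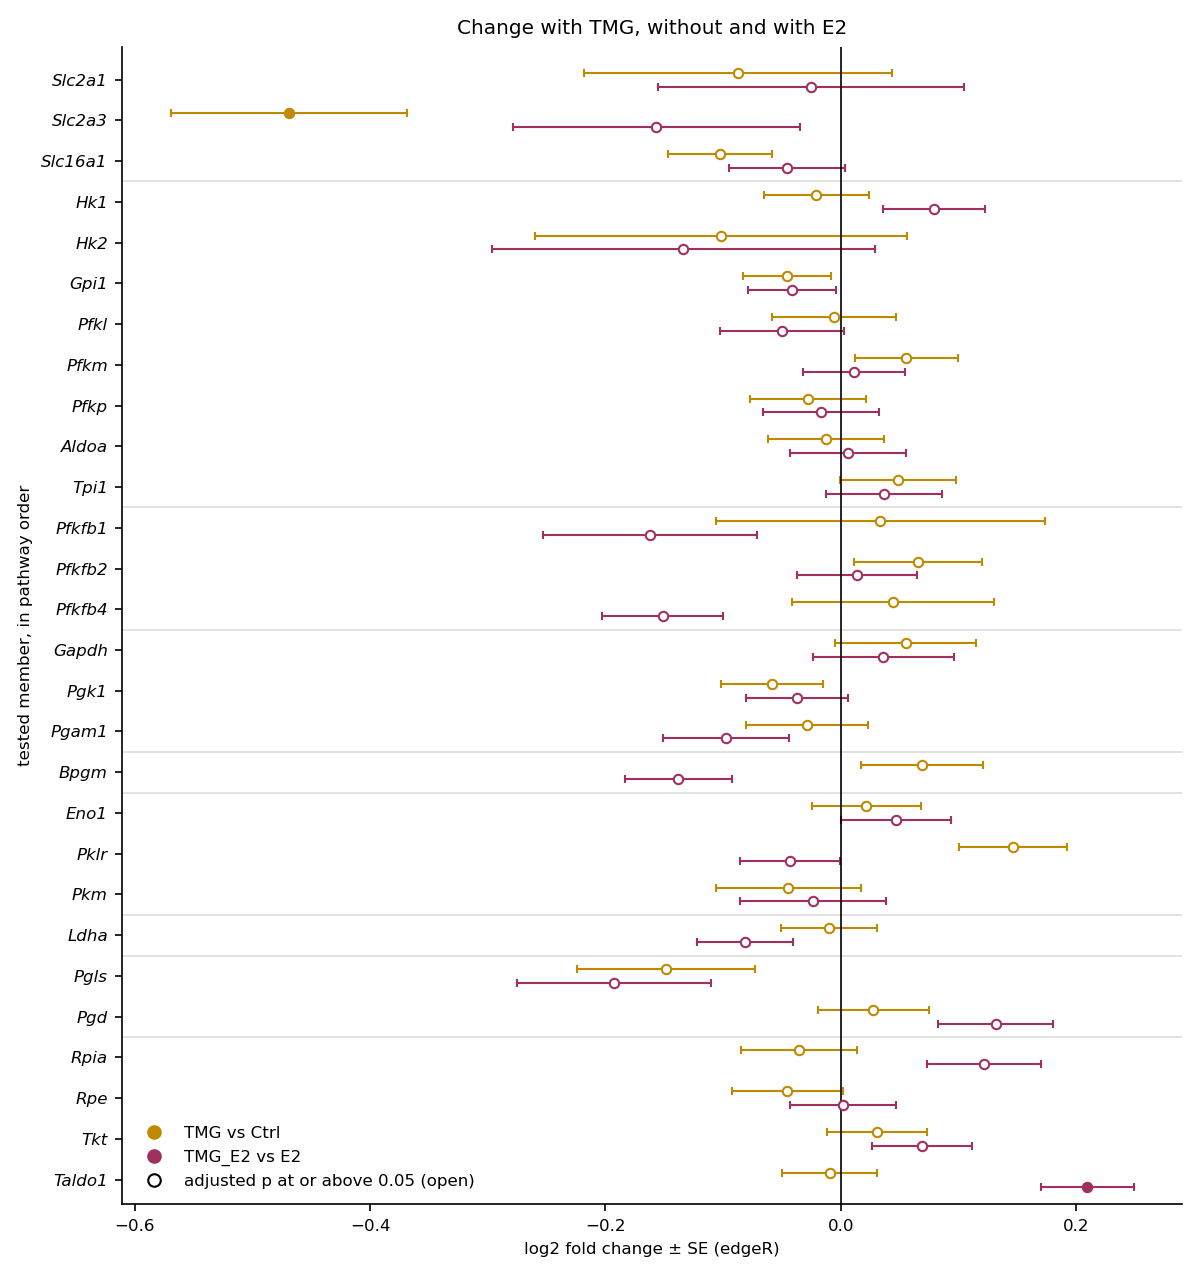
Change of the tested members described here with TMG, without E2 (yellow) and with E2 (red), as log2 fold change ± SE from edgeR on the horizontal axis, members in pathway order on the vertical axis, filled points for adjusted p under 0.05. The filled points are Slc2a3 at -0.47 without E2 and Taldo1 at 0.21 with E2.

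Whether TMG altered the E2 effect was tested directly as the interaction of the 2 treatments. No member was called, where 0.931% of all genes tested were called (0.266% higher and 0.665% lower), and 4 members had an unadjusted p under 0.05. The largest contrast by p was Taldo1, whose E2 effect was 0.88 without and 1.10 with TMG, a difference of 0.22 ± 0.06 (adjusted p = 0.0905, edgeR). It was called by DESeq2 (adjusted p = 0.0135), with the replicate block (0.0298), on the TPM scale (0.0275), with no expression filter (0.0463) and without TMG_E2 replicate 1 (0.0109). The E2 effects of Bpgm, 1.04 and 0.83, differed by -0.21 ± 0.07 (adjusted p = 0.209), and those of Pklr, 1.84 and 1.65, by -0.19 ± 0.06 (adjusted p = 0.202). For Slc2a3 the difference was 0.31 ± 0.16 (adjusted p = 0.489).

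Other genes around the pathways gave a wider view. Of 38 further genes of glucose entry, glycogen, sugar conversion and tissue-specific glycolytic isoforms, 15 were tested. In E2 against Ctrl, 2 were higher and 10 lower, where 82.7% of all genes tested were called (41.5% higher and 41.2% lower). Their median was -0.40 beside -0.0008 for all genes. Pygb, a glycogen phosphorylase, fell from 19.6 ± 0.4 to 5.07 ± 0.47 CPM (-1.95 ± 0.10, adjusted p = 2.77e-12). Its mean was 15.9 CPM in TMG and 4.42 CPM in TMG_E2, so only cells not given E2 brought it above the 10 CPM cut. Being high in those cells was thus required for Pygb to be tested at all. Pgm2 fell from 97.3 ± 6.5 to 44.0 ± 5.5 CPM (-1.14 ± 0.07). Pgm2l1, which makes glucose 1,6-bisphosphate, rose from 25.9 ± 1.1 to 39.8 ± 1.6 CPM (0.62 ± 0.07, adjusted p = 4.21e-07), and Bsg, the partner protein of lactate transporters, by 0.12 ± 0.05 (adjusted p = 0.0319). The Bsg call was lost without any 1 of the Ctrl libraries or E2 replicate 2 (adjusted p from 0.0570 to 0.176), and on the TPM scale its value was -0.08. TMG alone lowered 2 genes of this list, where 5.15% of all genes tested were called: Pygb (-0.30 ± 0.08, adjusted p = 0.0393) and Adpgk, an ADP-dependent glucokinase (-0.18 ± 0.04, adjusted p = 0.0195). Pygb lost this call without any 1 library of the 2 groups (adjusted p from 0.0735 to 0.139), and Adpgk without Ctrl replicate 2 or 3 or TMG replicate 1 or 3 (0.0565 to 0.0898). With TMG, E2 gave 1 higher and 9 lower, where 82.7% of all genes tested were called (40.9% higher and 41.8% lower).

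Of 14 further pentose and ribose phosphate genes, 13 were in the tables and 8 were tested, with 3 higher and 5 lower in E2, and the same counts with TMG. Of all genes tested, 82.7% were called in either setting. The median of the list was -0.39 in both settings, beside -0.0008 without TMG and -0.01 with it for all genes. H6pd, the NADPH-producing enzyme of the endoplasmic reticulum, fell from 29.3 ± 1.8 to 12.1 ± 0.3 CPM (-1.28 ± 0.07, adjusted p = 6.29e-12), and Prps2, which makes the precursor of nucleotides from ribose 5-phosphate, from 80.6 ± 1.5 to 37.7 ± 1.8 CPM (-1.10 ± 0.05). Idnk, a gluconokinase, rose by 0.55 ± 0.09 and Dera, a deoxyribose phosphate aldolase, by 0.25 ± 0.05. Dera was also the 1 gene of this list that TMG raised in cells with E2, from 47.7 ± 0.9 to 54.3 ± 1.3 CPM (0.19 ± 0.05, adjusted p = 0.0144, edgeR, and 0.0685 without E2 replicate 2). In that comparison 12.8% of all genes tested were called.

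Of 29 regulators of glucose use, 22 were tested, with 9 higher and 5 lower in E2 and 8 higher and 7 lower with TMG. Of all genes tested 82.7% were called in either setting, a larger share than among the regulators. The median of the regulators was 0.11 without TMG and 0.06 with it, beside -0.0008 and -0.01 for all genes. Myc, a transcription factor that drives glycolytic genes in growing cells, fell from 319 ± 42 to 88.8 ± 7.6 CPM (-1.85 ± 0.08, adjusted p = 8.92e-13), and the growth factor kinase Akt1 from 344 ± 11 to 187 ± 12 CPM (-0.88 ± 0.05). Prkab1, a subunit of the energy sensor AMPK, rose from 212 ± 4 to 533 ± 14 CPM (1.33 ± 0.04, adjusted p = 2.51e-15), and Stk11, the kinase that activates AMPK, from 110.1 ± 1.6 to 204 ± 3 CPM (0.89 ± 0.04). TMG alone called none of the regulators, where 5.15% of all genes tested were called. In cells with E2, TMG raised 1 regulator, where 12.8% of all genes tested were called. This was Stk11, at 225 ± 12 CPM in TMG_E2 (0.14 ± 0.04, adjusted p = 0.0266, edgeR). The call was kept only when TMG_E2 replicate 1 was the library left out (adjusted p from 0.0501 to 0.117 for the other 5). The interaction called no gene of the 3 lists, where 0.931% of all genes tested were called.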

How the data were processed

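Per the file headers, each library has a deposited table of expected counts, TPM and FPKM for 32699 genes. Per the series design text, the authors aligned read pairs of stranded poly(A) libraries to GRCm38/mm10 and estimated expression with RSEM 1.2.22, after FastQC 0.11.2 (the submitters' processing notes also name Bowtie2), and compared groups with EdgeR 3.14.0 in R 3.2.2. RSEM divides reads that match several genes, so the deposited expected counts need not be whole. The deposited TPM values are scaled by the authors for length and depth, and the deposited FPKM values were not used. No source used here says whether RSEM was given the strand.

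Expected counts were rounded and tested with edgeR 4.0.16 in R 4.3.3 (TMM scaling, quasi-likelihood test, 1 fit of all 12 libraries, no covariate). Following the series design text, genes with CPM over 10 in at least 2 libraries were kept (8273). p-values were adjusted by Benjamini-Hochberg over the genes kept, with a threshold of 0.05. Of the 34 members 29 were kept, and Hk3, Aldoc, Pfkfb3, Eno2 and Ldhb were not. CPM in the text is TMM-scaled, SE was computed from the F statistic, and isozyme ratios used an exact two-sided stratified permutation test on TPM. The alternatives were RLE factors, library size alone, no filter, filterByExpr, only the groups compared, DESeq2 1.42.0, limma 3.58.1 on log2(TPM + 1), the replicate number as a block, pseudocounts of 1 and 0.01 TPM, and leaving out each library. The fit was tested on simulated counts.

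Members and gene lists were chosen with earlier results of these data known. Every member enters the counts, some values are not reported here, and of each further list at most the 2 called genes with the highest and the 2 with the lowest fold change per comparison are named.

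The titles number the replicates 1 to 3 in every group. Deviations of same-numbered libraries correlated over the genes kept at 0.108 to 0.278 for E2 and Ctrl, 0.182 to 0.285 for TMG_E2 and E2, and 0.149 to 0.525 for TMG_E2 and TMG, so these were taken as paired. For TMG and Ctrl they correlated at 0.0295 to 0.188, which overlaps those ranges, and these were not taken as paired. Numbering shared by the other pairs of groups would link TMG and Ctrl too, so this choice is not settled by the data. The main fit used no pairing, and the replicate block used the numbers of all groups. Replicates of a group differed beyond counting noise (chi-square over its degrees of freedom, 2.41 to 13.2, the top value within TMG_E2), so none was merged. The first principal component, which separated libraries with and without E2, held 94.8% of the variance.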

Additional observations from a re-analysis of the deposited data

How the results depend on the processing

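Of 2173 values for single members under the alternatives, 2095 kept their direction and their side of the threshold, 65 gained a call, 12 lost one and 1 changed sign: Pfkm in TMG_E2 against TMG, -0.011 by limma on TPM. Scaling by library size alone moved the median of all genes to -0.10 for E2 and -0.11 for E2 with TMG, and limma on TPM to -0.19 and -0.18. Of 378 values for the further genes named, 353 kept direction and call, 24 lost the call and 1 changed sign, Bsg with E2, at -0.077 by limma on TPM. The cause of the other changes was not tested. Members called higher by TMG numbered 1 when only the groups compared were fitted, and 0 to 1 without each library in turn, as did those called lower. In TMG_E2 against E2, 3 members were called higher with the replicate block and 1 to 2 without each library. Members called lower there numbered 2 by library size alone, 1 with no filter, 2 with the replicate block, 2 by limma on TPM and 0 to 2 without each library. The interaction called 1 member with no filter, with the replicate block, by DESeq2 and by limma on TPM, and 0 to 1 without each library. Among the members named in the text, the replicate block changed no call other than those given there, and for TMG and Ctrl, where the numbers were not taken as paired, it left 0 called higher and 1 lower.

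With the permutation held within replicate numbers, the E2 effects on the ratios stayed at 2.60 for Pklr/Pkm, 1.53 for Hk1/Hk2, 2.06 for Bpgm/Pgam1, 1.01 for Slc2a1/Slc2a3, -0.60 for Ldha/Ldhb and -0.74 for Eno1/Eno2, and the TMG effect at -0.088 for Ldha/Ldhb. All had an adjusted p of 0.0556 in this exact permutation test, which cannot go below p = 0.0313. The lost calls thus rest on this limit together with the adjustment over the 16 tests. With 0.01 TPM added, Eno1/Eno2 gave -0.66 (adjusted p = 0.467). Without each library in turn, the TMG effect on Slc2a1/Slc2a3 ranged from 0.17 to 0.37 and the E2 effect on Aldoa/Aldoc from 0.28 to 0.46. Depth limits Slc2a3 (65 to 209 counts), Pfkfb1 (55 to 271) and Aldoc (89 to 160), while the other members tested had at least 110 counts in every library.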
